A study of Homo sapiens with 9 samples.

Results

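The genes examined here belong to the circadian clock and were measured in U251 cells, an established human glioblastoma line, after knockdown of the RNA-binding protein PTBP1. They were PER1, PER2, PER3, CRY1, CRY2, NR1D1, NR1D2, DBP, TEF and ARNTL (also called BMAL1). The choice was by symbol and not by a filter on their values, but earlier results of these data were known. All of them, 10 of 10, were found among the 22295 entries of the expression table. The 9 RNA-seq libraries fell into 3 groups of 3. One group, sh-Luci-3d, received a control lentivirus whose sh-RNA targets luciferase for 3 days and is called the 3-day control below. The others received a lentivirus with an sh-RNA against PTBP1, for 3 days in sh-Ptbp1-3d (the 3-day knockdown) and for 7 days in sh-Ptbp1-7d (the 7-day knockdown). Every group shares lentiviral infection. The methods place the cells being reprogrammed in a neuronal induction medium with forskolin and dorsomorphin from the second day after infection, and the medium of the sequenced cells is not given for each group in the sources used here. A sh-Luci group of 7 days was not analysed here, so knockdown, days and any time in the medium cannot be told apart at 7 days. The hour of collection is not given in the sources used here, so each library is a single, untimed view of genes whose mRNA can cycle. Nothing in the labels says that the 3 libraries of a group came from separate cultures, so the p-values measure only the spread between these libraries.

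The clock is a transcriptional feedback loop. ARNTL pairs with CLOCK or its relative NPAS2 and activates genes through E-boxes, among them the PER, CRY and NR1D genes and DBP, and the PER and CRY proteins then inhibit that pair. NR1D1 and NR1D2 (REV-ERB) repress ARNTL at ROR elements, where the ROR receptors activate it, while DBP, TEF and HLF act through D-boxes, which the repressor NFIL3 also binds. Forskolin raises cAMP, which acts through the CRE-binding protein CREB and induces PER1, and both forskolin and a change of serum or medium are used to set the phase of cultured cells.

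The promoter windows of RefSeq (GRCh38.p14, 250 bases before to 50 bases after an annotated start) were searched for exact letters of these elements. All 10 genes had a window there, with 15 windows in total. The letters searched, on both strands, were CACGTG for the E-box, TTATGTAA and TTACGTAA for the D-box, AGGTCA for the ROR element, TGACGTCA for the CRE and TGACG for its shorter form, which lies inside the CRE. The bases around these letters were not compared, so AGGTCA is called a ROR element here by its letters alone. The 5 windows below were chosen because they hold some of these letters in genes whose values follow. Sequences run 5′ to 3′ in the direction of the gene, and capitals mark the matches, which read as the reverse complement where the other strand holds them.
PER1, chr17:8152355-8152654, minus strand: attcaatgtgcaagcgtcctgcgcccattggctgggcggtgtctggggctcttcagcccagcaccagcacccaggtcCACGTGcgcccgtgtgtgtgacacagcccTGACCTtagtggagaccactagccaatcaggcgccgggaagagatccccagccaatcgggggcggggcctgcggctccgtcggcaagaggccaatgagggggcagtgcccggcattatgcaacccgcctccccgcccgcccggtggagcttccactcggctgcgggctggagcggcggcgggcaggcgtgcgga
PER2, chr2:238288561-238288860, minus strand: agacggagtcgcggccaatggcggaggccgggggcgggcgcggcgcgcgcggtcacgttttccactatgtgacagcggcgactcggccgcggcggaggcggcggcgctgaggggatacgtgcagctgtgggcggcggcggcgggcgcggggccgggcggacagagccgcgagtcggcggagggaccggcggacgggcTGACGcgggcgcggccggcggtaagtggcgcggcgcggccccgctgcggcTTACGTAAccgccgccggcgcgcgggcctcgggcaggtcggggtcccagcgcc
CRY2, chr11:45847225-45847524, plus strand: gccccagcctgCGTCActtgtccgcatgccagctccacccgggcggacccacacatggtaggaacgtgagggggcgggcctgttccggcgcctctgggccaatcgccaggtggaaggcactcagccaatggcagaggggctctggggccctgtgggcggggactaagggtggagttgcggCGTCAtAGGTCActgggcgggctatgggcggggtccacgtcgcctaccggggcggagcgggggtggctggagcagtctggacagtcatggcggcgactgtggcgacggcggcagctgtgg
NR1D2, chr3:23945871-23946170, plus strand: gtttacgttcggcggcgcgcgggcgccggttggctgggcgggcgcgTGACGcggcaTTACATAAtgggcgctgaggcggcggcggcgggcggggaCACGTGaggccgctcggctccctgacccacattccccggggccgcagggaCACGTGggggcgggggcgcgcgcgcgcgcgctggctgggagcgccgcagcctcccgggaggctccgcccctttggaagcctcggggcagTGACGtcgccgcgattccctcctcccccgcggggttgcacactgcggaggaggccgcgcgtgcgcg
ARNTL, chr11:13277540-13277839, plus strand: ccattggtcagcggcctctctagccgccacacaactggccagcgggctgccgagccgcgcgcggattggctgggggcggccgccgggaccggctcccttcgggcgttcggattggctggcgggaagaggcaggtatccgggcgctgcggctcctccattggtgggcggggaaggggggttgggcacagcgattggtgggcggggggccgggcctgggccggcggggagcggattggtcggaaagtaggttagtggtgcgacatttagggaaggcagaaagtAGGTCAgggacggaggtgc
Counted from 0 at the start base, the PER1 window has an E-box at position -173 and a ROR element at -144, and the PER2 window has a D-box at -3 and TGACG at -53. The CRY2 window has TGACG at -239 and -70 and a ROR element at -64. The NR1D2 window has E-boxes at -155 and -105, a D-box at -194 and TGACG at -204 and -16, and the ARNTL window has a ROR element at 31. Over all 15 windows, the E-box was found in 3 of the 10 genes (PER1, NR1D2 and TEF), the D-box in 3 (PER2, PER3 and NR1D2), the ROR element in 3 (PER1, CRY2 and ARNTL), TGACG in 4 (PER2, CRY1, CRY2 and NR1D2) and the whole CRE in 0. Of 27305 genes with RefSeq windows, 2396 hold the E-box, 347 the D-box, 4513 the ROR element, 614 the CRE and 7761 TGACG. Counted by window, the E-box was in 4 of the 15, the D-box in 3, the ROR element in 4, the CRE in 0 and TGACG in 6. Of 35116 RefSeq windows of this length, 7.26% hold the E-box, 1.01% the D-box, 13.8% the ROR element, 1.85% the CRE and 24.6% TGACG. A match describes the letters of a window and is not a measured binding site, and the windows of DBP and NR1D1 held none of these letters. Other forms of the elements, and sites outside the windows, were not searched, so a window without a match does not show that a gene lacks the element.

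The expression values are FPKM (fragments per kilobase of transcript, corrected for the mapped total) as deposited, and they sum to between 367412 and 404922 per library. A step of a single read was sought only across libraries, whose mapped totals can differ, so the search could neither show nor exclude one. The depth was therefore not estimated, and no counting interval is given. PTBP1, the targeted gene, stood at 55.2% of its 3-day control mean in the 3-day knockdown and at 43.6% in the 7-day knockdown. Control replicate 3 lay apart from replicates 1 and 2 on the second principal component (-17.7 against 30.4 and 27.2), and so did replicate 3 of the 3-day knockdown (-31.1 against -7.09 and -2.61), the only library with STMN2, a neuronal gene, above 0 (11.5 FPKM) and with DCX at 2.14 FPKM. Clock gene results that rest on either are given with and without it. Astroglial markers summed to 4365 to 4753 FPKM in the 3-day libraries and to 1244 to 1379 FPKM in the 7-day knockdown. The sum is mostly VIM, which went from 4381 to 1169 FPKM between the knockdown groups. CD44 went from 165.6 to 62.3 FPKM and SOX9 from 40.6 to 33.3 FPKM, both without overlap between these groups. SLC1A3 rose from 2.02 to 7.66 FPKM and S100B from 0.115 to 0.797 FPKM (limma adjusted p = 9.32e-06 and 0.00202). The libraries of NES and of GFAP overlapped between the knockdown groups, and AQP4 was near 0. Neuronal markers summed to 271 to 362 FPKM at 3 days and to 164 to 170 FPKM at 7 days, mostly TUBB3, which went from 316.9 to 118.2 FPKM between the knockdown groups. MAP2 rose from 20.3 to 38.9 FPKM (limma adjusted p = 0.000580), and SNAP25, at 2.68 and 4.32 FPKM, did not pass (limma adjusted p = 0.0177). The blood and immune markers numbered 5, and 4 of them were below 0.1 FPKM throughout. The remaining marker, CD68, had means of 10.1 FPKM in the 3-day control and 10.5 FPKM in the 3-day knockdown. Its mean was 16.3 FPKM in the 7-day knockdown, whose libraries all lay above those of 3 days. The part of these marker differences in the 7-day results was not tested, and in bulk RNA fewer cells of a type and less RNA per cell cannot be told apart.

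At 3 days no clock gene passed an FDR of 0.05. At 7 days CRY2, PER2, ARNTL and DBP were higher at an FDR of 0.01, and none was lower at that threshold. NR1D1 and TEF had lower values at 7 days than in the 3-day knockdown and fell short of it (limma adjusted p = 0.0147 for each). The comparisons used limma on log2(FPKM + 0.1), with p-values adjusted by Benjamini-Hochberg over 15551 genes whose mean reached 0.1 FPKM, among them all 10 clock genes. On this scale the change of a low gene comes out too small. In the 3-day knockdown against the 3-day control, 0 of 10 passed an FDR of 0.05, where 0.0322% of all genes passed, and 3 of 10 (CRY2, DBP and TEF) had an unadjusted limma p below 0.05, where 7.24% of all genes did. The groups did not overlap in 4 of 10 (CRY2, DBP and TEF higher, ARNTL lower), and in 10.8% of all genes. In the 7-day knockdown against the 3-day knockdown, 4 of 10 were higher at an FDR of 0.01 and 0 of 10 lower, where 35.8% of all genes passed, 20.3% higher and 15.5% lower. Against the 3-day control the same 4 genes were higher at 7 days, where 35.6% of all genes passed, 20.6% higher and 15% lower. With a fold change above 2 as well, CRY2 alone passed at 7 days against the 3-day knockdown, where 14.2% of all genes passed, and CRY2 and DBP passed against the 3-day control, where 14.6% did. The 7-day libraries did not overlap the 3-day knockdown libraries in 8 of the 10 genes, as in 62.3% of all genes, and did not overlap the control in 6 of the 10, as in 55.9% of all genes. The median log2 fold change of the 10 genes was 0.10, 0.15 and 0.25 in the 3 comparisons in this order, beside 0.01, 0.09 and 0.10 for all genes tested. The comparisons share libraries pairwise and are not independent of each other.

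**Figure D1:**
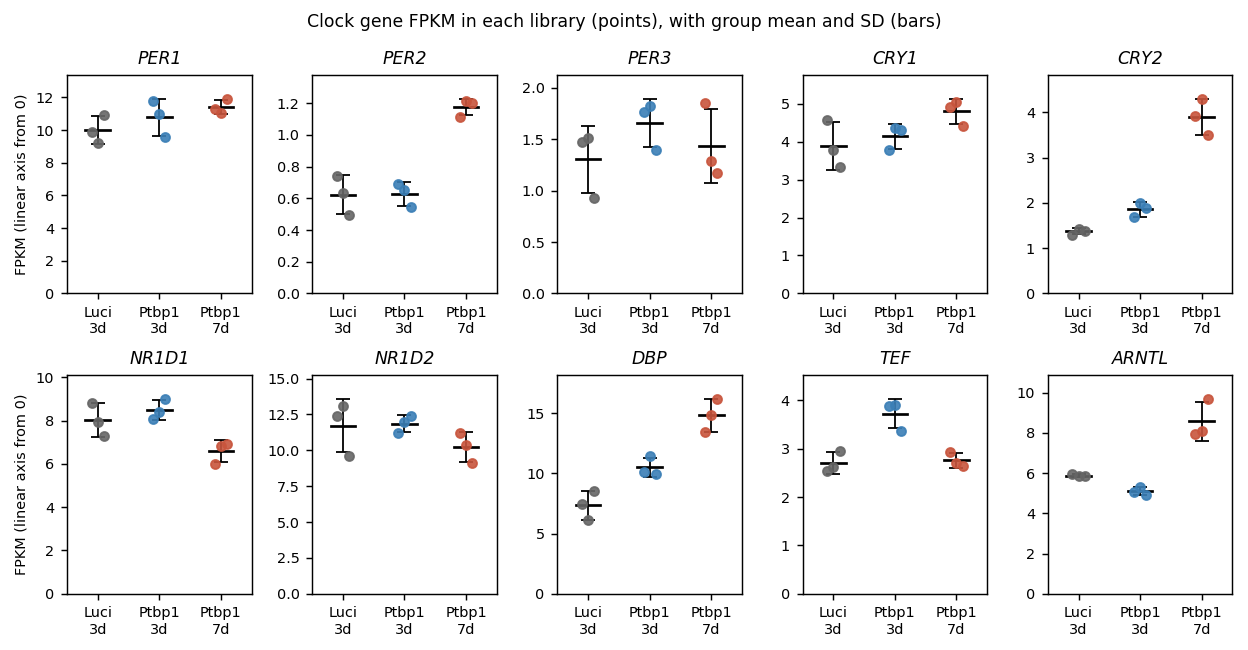
FPKM of the 10 clock genes in each library, on linear axes from 0, with replicates 1 to 3 from left to right in each group and bars for the group mean and SD (n = 3). The 3 points of the 7-day knockdown of PER2, CRY2, DBP and ARNTL lie above all 6 points of the 3-day libraries, and those of NR1D1 lie below them.

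ARNTL, the transcription factor at the centre of the activating arm, lies on chromosome 11 from 13276652 to 13387266 (GRCh38, GENCODE v29, as for all genes here). It was at 5.94, 5.83 and 5.86 FPKM in the control libraries, at 5.08, 5.30 and 4.91 FPKM in the 3-day knockdown and at 7.96, 8.09 and 9.69 FPKM in the 7-day knockdown. The groups did not overlap, with the 3-day knockdown lowest and the 7-day knockdown highest. From the 3-day knockdown (5.10 ± 0.196, SD, n = 3) to the 7-day knockdown (8.58 ± 0.960, SD, n = 3) ARNTL rose 1.68-fold, a log2 fold change of 0.73 with a standard error of 0.10 (limma adjusted p = 0.000156). Against the 3-day control the 7-day log2 fold change was 0.53 (limma adjusted p = 0.00133). The lower level in the 3-day knockdown, at 86.8% of the 3-day control, did not pass (log2 fold change -0.20, limma adjusted p = 0.725).

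The partners and the relative of ARNTL moved in opposite directions at 7 days. CLOCK, the histone acetyltransferase that pairs with ARNTL, was at 6.05, 5.67 and 3.83 FPKM in the 3-day control, at 4.93, 5.47 and 4.39 FPKM in the 3-day knockdown and at 3.00, 2.99 and 2.35 FPKM in the 7-day knockdown. NPAS2, which can take its place, was at 0.464, 0.545 and 0.556 FPKM, then at 0.695, 0.945 and 0.582 FPKM and then at 2.41, 2.76 and 2.51 FPKM. In both genes the 7-day libraries stood clear of all 6 libraries of 3 days, below them for CLOCK and above them for NPAS2. CLOCK fell by 0.81 on the log2 scale from the 3-day knockdown to the 7-day knockdown (limma adjusted p = 0.00345), and NPAS2 rose by 1.68 (limma adjusted p = 3.91e-05). ARNTL2, the paralog of ARNTL, went from 3.67 ± 0.467 FPKM in the 3-day control and 4.65 ± 0.501 FPKM in the 3-day knockdown to 1.72 ± 0.420 FPKM at 7 days (SD, n = 3), and it fell by 1.40 on the log2 scale between the knockdown groups (limma adjusted p = 7.26e-05).

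Since FPKM is scaled to length, the paralogs can be added within a library. CLOCK and NPAS2 together summed to 5.70 ± 1.15 FPKM in the 3-day control, 5.67 ± 0.725 FPKM in the 3-day knockdown and 5.34 ± 0.449 FPKM in the 7-day knockdown (SD, n = 3), while the share of NPAS2 in that sum was 9.53% ± 2.85, 12.9% ± 1.59 and 48.0% ± 3.59 (SD, n = 3). The sum of ARNTL and ARNTL2 was 9.55 ± 0.508, 9.75 ± 0.661 and 10.3 ± 0.759 FPKM (SD, n = 3), and the share of ARNTL was 61.6% ± 2.89, 52.4% ± 2.06 and 83.2% ± 4.41 (SD, n = 3). Both sums overlapped between the groups, whereas the shares of the 7-day libraries did not overlap those of the 3-day libraries. The shares come from the values tested above and were not tested again.

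The PER genes encode the proteins that enter the nucleus with the CRY proteins and close the loop. PER2 (chromosome 2, 238244038 to 238290102) was the lowest of the 10 genes in all 3 groups, at 0.739, 0.631 and 0.495 FPKM in the 3-day control, 0.691, 0.653 and 0.546 FPKM in the 3-day knockdown and 1.12, 1.21 and 1.20 FPKM in the 7-day knockdown. The 3-day groups overlapped, and the 7-day libraries all lay above them. PER2 rose 1.87-fold from the 3-day knockdown to the 7-day knockdown (log2 fold change 0.81, standard error 0.19, limma adjusted p = 0.00529) and 1.89-fold against the 3-day control (log2 fold change 0.84, limma adjusted p = 0.00440). With 1 of the 6 libraries of the knockdown groups left out at a time the log2 fold change was 0.72 to 0.87 and the limma adjusted p 0.0116 to 0.0212, so that each of these 6 omissions ended the call. Against the 3-day control the same happened without control replicate 2 or 3 or any 7-day replicate, at limma adjusted p of 0.0121 to 0.0183. At 3 days the log2 fold change of PER2 against the 3-day control was 0.03, with a 95% interval of -0.40 to 0.45 (limma adjusted p = 0.986), and it was -0.11 without control replicate 3.

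PER1 (chromosome 17, 8140472 to 8156506) gave most of the PER signal, and its share of the 3 PER genes was 83.8% ± 4.05, 82.5% ± 0.818 and 81.4% ± 2.07 (SD, n = 3) in the 3-day control, the 3-day knockdown and the 7-day knockdown. It was at 9.88, 9.23 and 10.9 FPKM in the 3-day control, at 11.8, 11.0 and 9.56 FPKM in the 3-day knockdown and at 11.3, 11.0 and 11.9 FPKM in the 7-day knockdown. All 7-day values were above those of the 3-day control and they overlapped those of the 3-day knockdown. PER1, known as an immediate early target of cAMP, did not pass in any comparison, with log2 fold changes of 0.10, 0.09 and 0.19 (limma adjusted p = 0.858, 0.515 and 0.148) and a 95% interval of -0.14 to 0.31 between the knockdown groups. PER3 (chromosome 1, 7784320 to 7845177) stood at 1.48, 1.51 and 0.932 FPKM in the 3-day control, at 1.76, 1.83 and 1.40 FPKM in the 3-day knockdown and at 1.85, 1.29 and 1.17 FPKM in the 7-day knockdown. Its groups overlapped in every comparison, and its 95% interval between the knockdown groups, -0.72 to 0.29 on the log2 scale, was the widest of the 10 genes (limma adjusted p = 0.464).

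The CRY genes encode the main repressors of the ARNTL and CLOCK pair, and CRY2 had the largest fold change of the 10 genes at 7 days. CRY2 (chromosome 11, 45847118 to 45883248) stood at 1.30, 1.43 and 1.38 FPKM in the 3-day control, at 1.68, 2.001 and 1.88 FPKM in the 3-day knockdown and at 3.92, 4.29 and 3.49 FPKM in the 7-day knockdown. The 3 groups did not overlap, with the 3-day control lowest and the 7-day knockdown highest. Between the knockdown groups it rose 2.10-fold (log2 fold change 1.03, standard error 0.13, limma adjusted p = 0.000101), and against the 3-day control 2.85-fold (log2 fold change 1.44, limma adjusted p = 8.90e-06). Its 3-day log2 fold change of 0.41 had an unadjusted limma p of 0.0118 and an adjusted p of 0.590, and did not pass. CRY1 (chromosome 12, 106991364 to 107093829) stood at 4.57, 3.79 and 3.33 FPKM, then at 3.77, 4.36 and 4.32 FPKM and then at 4.93, 5.05 and 4.43 FPKM in the same group order. Its 7-day libraries were above those of the 3-day knockdown without passing the test (log2 fold change 0.21, 95% interval -0.09 to 0.50, limma adjusted p = 0.221). The share of CRY2 in the sum of both CRY genes was 26.3% ± 3.74 in the 3-day control, 30.9% ± 0.546 in the 3-day knockdown and 44.8% ± 1.001 in the 7-day knockdown (SD, n = 3), and the sum itself was 5.27 ± 0.582, 6.003 ± 0.485 and 8.70 ± 0.722 FPKM (SD, n = 3).

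**Figure D2:**
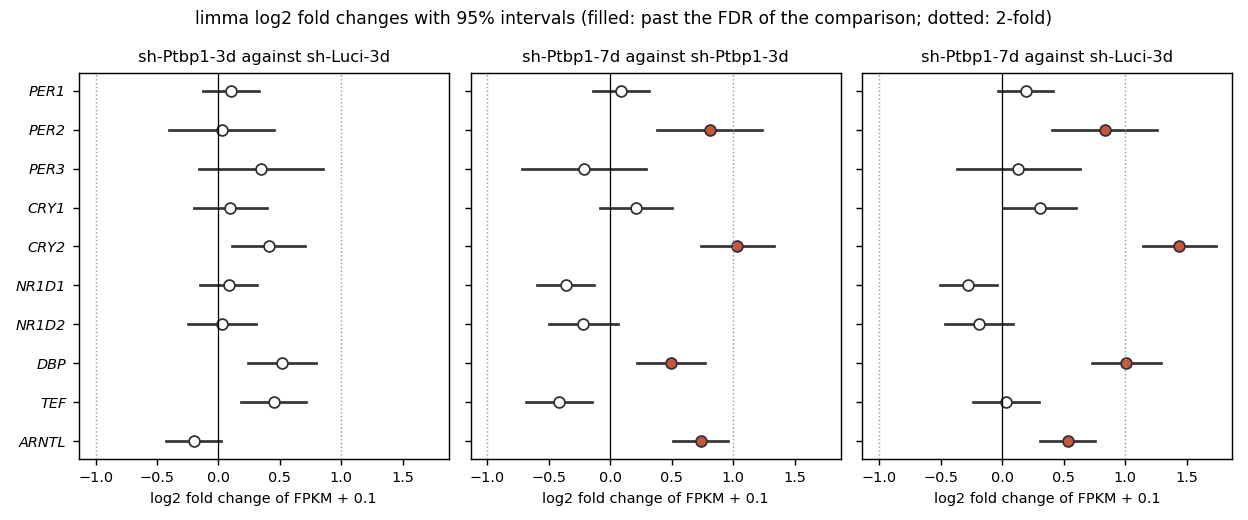
log2 fold changes of FPKM + 0.1 for the 10 clock genes in the 3 comparisons, with 95% intervals from limma, filled points where the gene passed the FDR of that comparison and dotted lines at a fold change of 2. No point is filled in the 3-day knockdown against the 3-day control, and PER2, CRY2, DBP and ARNTL are filled to the right of 0 in both comparisons with the 7-day knockdown.

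NR1D1 and NR1D2, the nuclear receptors that repress ARNTL, had lower 7-day means than the 3-day knockdown but did not pass an FDR of 0.01. NR1D1 (chromosome 17, 40092787 to 40100725) stood at 8.83, 7.93 and 7.28 FPKM in the 3-day control, at 8.07, 8.39 and 8.99 FPKM in the 3-day knockdown and at 6.01, 6.81 and 6.94 FPKM in the 7-day knockdown. Every 7-day library was below all 6 libraries of 3 days. The log2 fold change was -0.36 between the knockdown groups (standard error 0.10, limma adjusted p = 0.0147) and -0.28 against the 3-day control (limma adjusted p = 0.0477). Without control replicate 3, which enters through the shared spread, the former passed (limma adjusted p = 0.00608). It passed too under median-ratio scaling (0.00588), quantile normalization (0.00404) and a fit of the 2 groups alone (0.00913), all limma adjusted p. Under the other 16 of the 20 alternatives it did not pass, with a limma adjusted p of up to 0.0744. NR1D1 shares 263 exonic bases, 9.49% of its own, with THRA on the opposite strand. THRA, the thyroid hormone receptor alpha, rose from 16.8 ± 1.77 to 36.6 ± 4.08 FPKM (SD, n = 3) between the knockdown groups (log2 fold change 1.12, limma adjusted p = 2.98e-05), and whether the counting used strand is not given in the sources used here, so reads of the shared bases cannot be told apart.

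NR1D2 (chromosome 3, 23945260 to 23980618) had the highest mean of the 10 genes in both 3-day groups, at 12.4, 13.1 and 9.62 FPKM in the 3-day control and 11.2, 12.0 and 12.4 FPKM in the 3-day knockdown, and was at 11.2, 10.4 and 9.08 FPKM in the 7-day knockdown. The 7-day values overlapped those of the 3-day control, and they lay just below those of the 3-day knockdown. Its log2 fold change between the knockdown groups was -0.22, with a 95% interval of -0.50 to 0.06 (limma adjusted p = 0.173). Of the ROR receptors, which oppose NR1D1 and NR1D2, RORA had group means of at most 0.0751 FPKM and was not tested. RORB was at 1.64 ± 0.341 FPKM in the 3-day control, 1.40 ± 0.0916 FPKM in the 3-day knockdown and 2.70 ± 0.511 FPKM in the 7-day knockdown (SD, n = 3), and it rose by 0.89 on the log2 scale between the knockdown groups (limma adjusted p = 0.00292).

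DBP, the D-box activator whose mRNA has one of the widest daily swings in many tissues, had a mean that was 1.43-fold higher in the 3-day knockdown than in the control and again 1.41-fold higher at 7 days. DBP (chromosome 19, 48630030 to 48637438) stood at 7.43, 6.12 and 8.50 FPKM in the 3-day control, at 10.1, 11.4 and 9.93 FPKM in the 3-day knockdown and at 13.4, 14.9 and 16.1 FPKM in the 7-day knockdown. No library of one group overlapped another. Against the 3-day control the 7-day level was 2.02-fold, a log2 fold change of 1.01 with a standard error of 0.13 (limma adjusted p = 7.45e-05). Between the knockdown groups the log2 fold change was 0.49 (limma adjusted p = 0.00779), and this passed narrowly. Without control replicate 1, or without any 1 of the 6 libraries of the knockdown groups, it was 0.43 to 0.56 with a limma adjusted p of 0.0107 to 0.0364. At 3 days the log2 fold change was 0.52 with an unadjusted limma p of 0.00193 and an adjusted p of 0.401, and without control replicate 3 it was 0.63 and passed (limma adjusted p = 0.0163). DBP shares 661 exonic bases, 10.1% of its own, with SPHK2 on the opposite strand, a sphingosine kinase gene at 13.1 to 18.2 FPKM in the 3-day control, 13.3 to 15.2 FPKM in the 3-day knockdown and 16.5 to 20.6 FPKM in the 7-day knockdown.

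TEF, a D-box activator of the same family, had its highest level in the 3-day knockdown. TEF (chromosome 22, 41367333 to 41399326) stood at 2.53, 2.62 and 2.96 FPKM in the 3-day control, at 3.89, 3.90 and 3.38 FPKM in the 3-day knockdown and at 2.93, 2.71 and 2.64 FPKM in the 7-day knockdown. The 3-day knockdown libraries lay above those of both other groups, which overlapped each other. Neither step passed, with a log2 fold change of 0.45 at 3 days (limma unadjusted p = 0.00360, adjusted p = 0.473) and of -0.42 between the knockdown groups (limma adjusted p = 0.0147). Without control replicate 3 both passed, at 0.51 (limma adjusted p = 0.0376) and -0.42 (limma adjusted p = 0.00800), and the later step also passed under median-ratio scaling (limma adjusted p = 0.00387), quantile normalization (limma adjusted p = 0.00192) and without an intensity trend (limma adjusted p = 0.00934). Under the other 16 of the 20 alternatives the later step did not pass, with a limma adjusted p of up to 0.0579. The 3-day step passed under none of the other alternatives.

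The third D-box activator, HLF, was at or below 0.118 FPKM in every 3-day library and at 0.261, 0.250 and 0.227 FPKM in the 7-day knockdown, which did not pass (log2 fold change 1.01, limma adjusted p = 0.01996). NFIL3, the repressor at the same boxes, rose from 3.75 ± 0.449 to 6.11 ± 0.589 FPKM between the knockdown groups (SD, n = 3, log2 fold change 0.69, limma adjusted p = 0.00124). The repressors BHLHE40 and BHLHE41 (DEC1 and DEC2), which compete for E-boxes, both fell at 7 days. BHLHE40 was at 97.2, 98.4 and 87.8 FPKM in the 3-day control, at 99.4, 104.9 and 92.4 FPKM in the 3-day knockdown and at 41.1, 41.8 and 41.0 FPKM in the 7-day knockdown, and it fell by 1.26 on the log2 scale between the knockdown groups (limma adjusted p = 3.83e-07). BHLHE41 fell by 1.23 (limma adjusted p = 9.94e-06), and BHLHE40 was 95.9% of the sum of the pair in each of the 3 groups. CIART, another repressor of the loop, was at 4.19 ± 0.320 FPKM in the 3-day knockdown and 2.30 ± 0.108 FPKM in the 7-day knockdown (SD, n = 3) and did not pass (limma adjusted p = 0.0123).

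The order of the 10 genes by mean FPKM also differed between the groups. In the 3-day control it was NR1D2, PER1, NR1D1, DBP, ARNTL, CRY1, TEF, CRY2, PER3 and PER2, from high to low, where NR1D2 and PER1, NR1D1 and DBP, and CRY2 and PER3 overlapped over libraries. In the 7-day knockdown it was DBP, PER1, NR1D2, ARNTL, NR1D1, CRY1, CRY2, TEF, PER3 and PER2, where PER1 and NR1D2, NR1D2 and ARNTL, and PER3 and PER2 overlapped. DBP went from the fourth place to the first, without overlap with the next gene, and ARNTL stood above NR1D1 in the 7-day knockdown alone.

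Ratios to ARNTL within a library, taken on FPKM + 0.1, set 7 clock genes against the activator itself. On the log2 scale, NR1D1 stood above ARNTL by 0.56, 0.44 and 0.31 in the control libraries and by 0.66, 0.65 and 0.86 in the 3-day knockdown. In the 7-day knockdown it stood below ARNTL, at -0.40, -0.24 and -0.47. The means, 0.44, 0.72 and -0.37, differed by -1.10 between the knockdown groups, and no library of one group overlapped another. DBP relative to ARNTL averaged 0.31 ± 0.23, 1.02 ± 0.058 and 0.78 ± 0.075 in the same order (SD, n = 3), so it was highest in the 3-day knockdown although the FPKM of DBP was highest in the 7-day knockdown. PER1, PER3 and CRY1 had lower ratios to ARNTL in every library of the 7-day knockdown than in the 3-day knockdown, by 0.65, 0.95 and 0.53 in the means. The ratio of CRY2 went the other way, with means of -2.02, -1.41 and -1.12, overlapping between the knockdown groups and without overlap between the 7-day knockdown and the control. The ratio of PER2 overlapped between all groups, with means of -3.06, -2.84 and -2.76, and with a pseudocount of 1 the order of the last 2 means turned (-2.09, -1.90 and -2.13). These ratios are a description and were not tested.

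**Figure D3:**
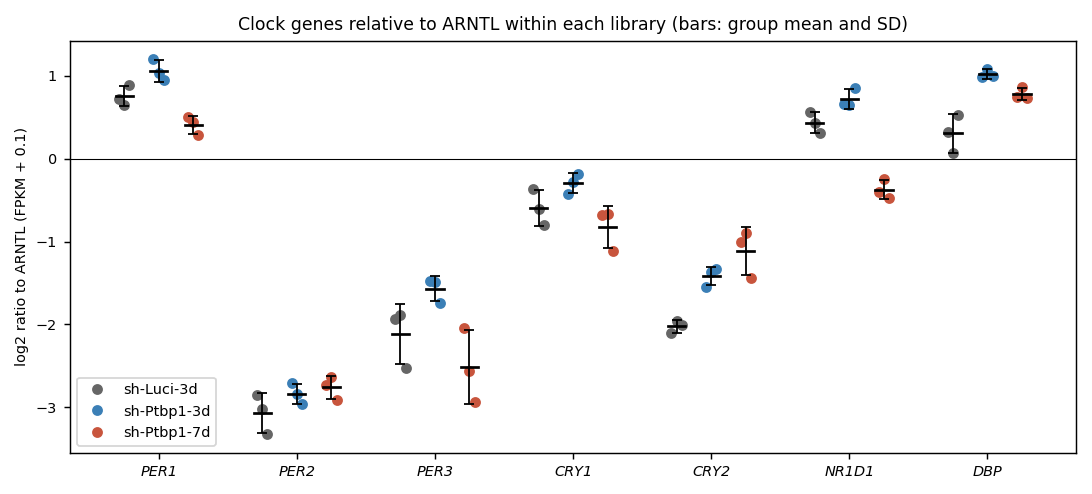
log2 ratio of 7 clock genes to ARNTL (FPKM + 0.1) within each library, with bars for the group mean and SD (n = 3). NR1D1 lies above 0 in the 6 libraries of 3 days and below 0 in all libraries of the 7-day knockdown, and PER2 overlaps between all groups.

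Beyond the 10 genes, 81 genes of the clock and of its inputs and outputs were listed, 80 were in the table and 77 were tested. At 3 days 0 of 77 passed in limma, and 4 had an unadjusted p below 0.05, where 7.24% of all genes did. Between the knockdown groups 24 were higher and 12 lower at an FDR of 0.01, which is 46.8% of them beside 35.8% of all genes. The median log2 fold change was 0.24, beside 0.09 for all genes tested. These lists were chosen with earlier results of these data known. Their shares beside that of all genes are therefore a description only. The inputs that act through cAMP and calcium had 10 of 17 higher and 0 lower (58.8%). The immediate early genes FOS and EGR1 rose by 2.45 and 2.41 on the log2 scale (limma adjusted p = 0.000511 and 4.82e-07), and PDE4D, a phosphodiesterase that breaks down cAMP, rose by 1.18 (limma adjusted p = 0.000340). The mRNA of CREB1, at 5.38 FPKM in the 3-day knockdown and 6.36 FPKM in the 7-day knockdown, did not pass (limma adjusted p = 0.337). Whether these inputs acted on PER1, PER2 or another clock gene was not tested. The clock-controlled output genes had 5 of 19 higher and 1 lower, a share of 31.6% beside the 35.8% of all genes. The cell cycle inhibitor CDKN1A rose by 1.13, the transcription factor KLF9 by 1.004 and the cyclin CCND1 by 0.83 on the log2 scale (limma adjusted p = 9.76e-06, 0.000248 and 1.62e-05).

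The list of kinases, ubiquitin ligases and related enzymes of the clock had 2 of 17 higher and 2 lower, a share of 23.5% that is below the 35.8% of all genes. BTRC, a ligase subunit for PER proteins, and the kinase GSK3A were higher by 0.56 and 0.42 on the log2 scale (limma adjusted p = 0.00115 and 0.00114). PRKAA2, a catalytic subunit of AMPK, which marks CRY1 for degradation and which dorsomorphin in the medium inhibits, fell by 0.93 (limma adjusted p = 0.00106), and the ligase HUWE1 fell by 0.51 (limma adjusted p = 0.00901). The casein kinases of PER, CSNK1D and CSNK1E, did not pass. Chromatin factors and corepressors had 4 of 15 higher and 5 lower (60% together). The coactivator PPARGC1A, which acts with ROR receptors at ARNTL, rose by 1.93 and TBL1X, a subunit of corepressor complexes, by 1.57 (limma adjusted p = 2.12e-06 and 3.61e-06). The deacetylase HDAC3, through which NR1D1 represses, fell by 0.29 (limma adjusted p = 0.00708), and the acetyltransferase EP300 rose by 0.58 (limma adjusted p = 0.00275). Other members of this list were also lower at 7 days without overlap between the knockdown groups. Among them were EZH2 (25.8 to 17.5 FPKM), SFPQ (95.9 to 71.9 FPKM) and NONO (335.6 to 263.5 FPKM).

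**Figure D4:**
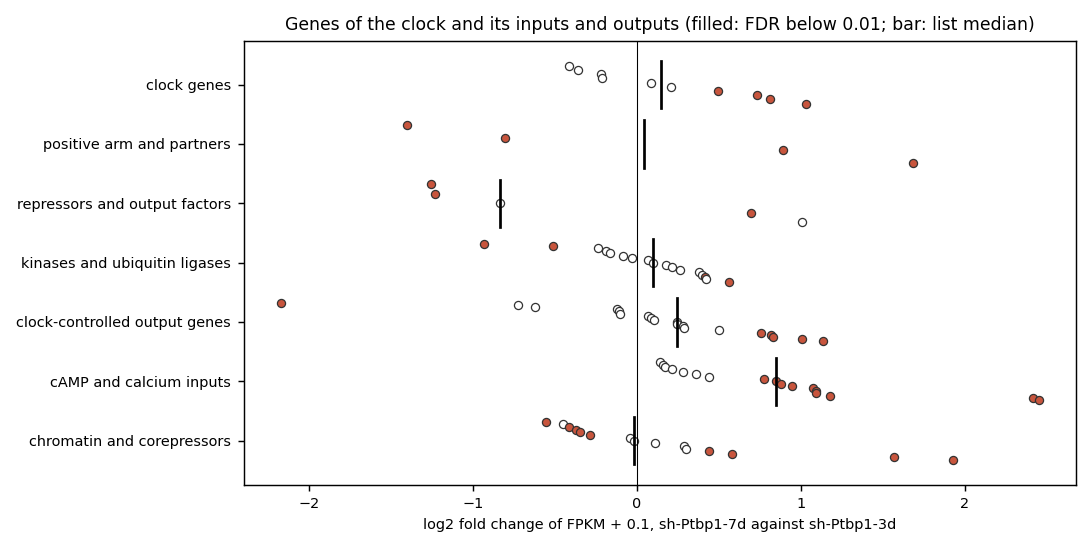
log2 fold changes of FPKM + 0.1 in the 7-day knockdown against the 3-day knockdown for the 10 clock genes and the 77 further genes tested, one row for each list, filled where the FDR was below 0.01, with a bar at the list median. The 17 cAMP and calcium inputs all lie to the right of 0, and the 4 partners of the activating arm lie on both sides.

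For each clock gene, the gene with the most similar course over the 9 libraries was sought among 11340 genes whose mean reached 1 FPKM, by the root mean square difference of the centred log2 values. The nearest was OSGEP for PER1 (0.049), PRKD3 for PER2 (0.080), TMEM135 for PER3 (0.12), ZNF248 for CRY1 (0.066) and OAF for CRY2 (0.10). It was FBXO33 for NR1D1 (0.048), MB21D2 for NR1D2 (0.054), HYAL2 for DBP (0.10), FKBP1C for TEF (0.072) and SSR2 for ARNTL (0.063). No clock gene was the nearest of another, but PER2, whose mean does not reach 1 FPKM, was not a candidate, and only the nearest gene was kept. With 11340 candidates over 9 libraries that share groups and scaling, these likenesses are a description only.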

How the data were processed

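The 9 libraries were grouped by their labels. The authors sequenced total RNA on Illumina HiSeq, filtered the reads and deposited FPKM values of 19932 gene symbols and 2363 assembled loci. The submitters' processing notes name HISAT2 and GRCh38, and the counting program and annotation are not given in the sources used here. A deposited coordinate table of the assembled loci (values of another kind) held no locus within 10 kb of a clock gene.

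From the FPKM values, log2(FPKM + 0.1) of 15551 genes was fitted with limma 3.58.1 in R 4.3.3, all 9 libraries in one model of 3 groups with an intensity trend. Thresholds were FDR 0.05 at 3 days and 0.01 at 7 days, and a fold change of 2. The model was tested on simulated data. Positions came from GENCODE v29 and promoters from RefSeq GRCh38.p14. Figures used matplotlib 3.10.9 in Python 3.11.15. The clock genes, the 6 further lists and the alternatives were chosen with earlier results of these data known. Named genes were the 10, their partners by name and up to 3 genes per direction from each other list. CREB1, CSNK1D, CSNK1E, HDAC3, EP300, EZH2, SFPQ, NONO and SPHK2 were chosen after their values were seen. Alternatives were other pseudocounts (1 and 0.01), filters and scalings, TPM, no assembled loci, a fit of 2 groups alone, a replicate block, no trend and leaving out each library. Some listed genes are not reported here.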

Additional observations from a re-analysis of the deposited data

How the results depend on the processing

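ARNTL and CRY2 stayed higher and past the FDR in both 7-day comparisons under all 20 alternatives, as did DBP against sh-Luci-3d. Of 597 log2 fold changes of the clock genes under alternatives, 547 kept their direction and side of the threshold, 26 lost and 10 gained the call, and 14 changed sign. None of those that changed sign had passed: PER1 between the PTBP1 groups (-0.00079) and TEF at 7 days against sh-Luci-3d (-0.065) under median-ratio scaling, and under quantile normalization PER2 at 3 days (-0.017) and, at 7 days against sh-Luci-3d, PER3 (-0.097) and TEF (-0.15). With 1 library left out at a time, the 3-day log2 fold change ran from -0.11 to 0.14 for PER2 (below 0 without sh-Luci-3d replicate 3 or, at -0.036, sh-Ptbp1-3d replicate 1), from -0.0082 to 0.22 for CRY1 (below 0 without sh-Luci-3d replicate 3) and from -0.11 to 0.12 for NR1D2 (below 0 without sh-Luci-3d replicate 3 or, at -0.0024, sh-Ptbp1-3d replicate 3). At 7 days against sh-Luci-3d it ran from -0.076 to 0.26 for PER3 (below 0 without sh-Luci-3d replicate 3 or, at -0.051, sh-Ptbp1-7d replicate 1) and from -0.011 to 0.097 for TEF (below 0 without sh-Luci-3d replicate 1 or, at -0.010, sh-Ptbp1-7d replicate 1).

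Clock genes past both the FDR and a fold change of 2 numbered 0 between the PTBP1 groups and 1 against sh-Luci-3d under a pseudocount of 1, median-ratio scaling and quantile normalization. PER2 also lost its call under quantile normalization, with a limma adjusted p of 0.0207 between the PTBP1 groups and 0.0236 against sh-Luci-3d, and against sh-Luci-3d with the 2 groups alone (0.0105). It had no value with a mean of at least 1 FPKM, which it does not reach. DBP between the PTBP1 groups lost its call without a filter, without the trend and under both of these scalings. Among all genes, the 5 past the FDR at 3 days became 3 under quantile normalization, 3 without the trend and 0 with the 2 groups alone. Leaving out 1 library at a time gave 0 to 2 clock genes past the FDR at 3 days (2 without sh-Luci-3d replicate 3), 2 to 6 between the PTBP1 groups and 3 to 4 against sh-Luci-3d, and with the fold change 0 to 1 and 1 to 2 in the latter comparisons. It gave 0 to 986 of all genes at 3 days (986 without sh-Luci-3d replicate 3) and 0 to 3 of the further lists. TPM moved the median log2 fold change of all genes between the PTBP1 groups by 0.10, and quantile normalization by -0.10. The cause of these shifts was not tested. Of 105 mean ratios to ARNTL under alternatives, 95 moved by less than 1 SD and 10 by more, all 10 under other pseudocounts.

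Replicate numbers did not pair the libraries, since same-numbered libraries correlated by -0.032 to 0.051 in their deviations. With the replicate block, 0 of all genes passed at 3 days, and 3 clock genes passed between the PTBP1 groups and 4 against sh-Luci-3d, DBP between the PTBP1 groups being the one not called (limma adjusted p = 0.0126). The depth was not estimated from the FPKM values, so the precision of low genes such as PER2 is not stated beyond the spread of 3 libraries.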
